A study of Mus musculus with 2 samples.

Results

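The miR-29 family of the mouse is encoded by 4 genes, Mir29a, Mir29b-1, Mir29b-2 and Mir29c, and their counts were taken by gene identifier from 2 microRNA sequencing libraries of the adrenal gland. These are 4 of the 2202 annotated miRNA genes in the deposited tables, and all 4 were found, tested and detected with at least 10 reads in each library. The libraries came from adrenal tissue of female B6CASTF1/J mice aged 25 days, F1 hybrids of a laboratory and a CAST strain supplied by The Jackson Laboratory, with no treatment named. They form a single group of 2 biological replicates, numbered as separate animals but with the same donor identifier, and the design has no contrast between conditions. Differences between library 1 and library 2 are therefore differences between replicates, which hold animal, dissection, library preparation and sequencing together and cannot be told apart.

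A miRNA is cut from a hairpin precursor whose arms each can give a mature strand, named 5p and 3p. The mature strand guides Argonaute to mRNAs that pair with its seed, bases 2 to 8, and lowers their stability and translation. The miR-29 family is best known for repressing mRNAs of the extracellular matrix, among them collagens, elastin and fibrillin, and mRNAs of the DNA methyltransferases Dnmt3a and Dnmt3b. In the adrenal gland, matrix is made in the capsule and in the stroma of the steroid-producing cortex and the catecholamine-producing medulla. None of these target mRNAs was measured in the libraries.

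The mature 3p strands are shown first because the counts turn on how they differ. Sequences are those of RefSeq on GRCm38.p6, the assembly that mm10 names, all 4 genes were matched there by symbol, and capitals mark the seed.
mmu-miR-29a-3p: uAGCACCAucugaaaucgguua
mmu-miR-29b-3p: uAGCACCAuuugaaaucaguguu
mmu-miR-29c-3p: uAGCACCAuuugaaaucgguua
All 3 share the seed AGCACCA, which no other of the 1679 mature names in the RefSeq table carries. Counted from the 5′ end of miR-29a-3p, miR-29c-3p differs from it by C10U alone. miR-29b-3p differs from miR-29a-3p by C10U, G18A, U21G and A22U over the 22 bases compared, and it is 1 base longer, with 23. Its last 6 bases, AGUGUU, are known from human miR-29b as an element that directs the miRNA to the nucleus. They end 2 of the 1679 mature sequences and lie anywhere, on the strand of the miRNA, in 12 (0.715%).

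Mir29b-1 and Mir29b-2 make the same 3p strand. Their hairpins share a run of 25 bases, shown in capitals with 3 bases before it and 2 bases after it, which holds the 23 bases of miR-29b-3p and 2 bases upstream.
Mir29b-1: uugUCUAGCACCAUUUGAAAUCAGUGUUcu
Mir29b-2: guaUCUAGCACCAUUUGAAAUCAGUGUUuu
A read that starts and ends inside the capitals maps equally well to both genes. Reads mapped to several places made up 28.4% of library 1 and 27.5% of library 2 and are in no gene count, so the Mir29b-1 and Mir29b-2 counts hold only reads that could be placed at a single gene. How many miR-29b reads were set aside was not measured. The 5p strands of these genes do differ. They are shown with their seeds in capitals.
mmu-miR-29b-1-5p: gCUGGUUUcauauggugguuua
mmu-miR-29b-2-5p: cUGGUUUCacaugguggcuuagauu
With miR-29b-2-5p shifted by 1 base, so that it starts under base 2 of miR-29b-1-5p, the 21 compared bases differ at U11C and U19C, counted from the 5′ end of miR-29b-1-5p. The deposited counts are per gene, so reads of the 5p and 3p strands cannot be told apart.

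Windows of 20 bases along each hairpin were compared with the gene models of all other miRNA genes, on both strands. Of Mir29a, 0 of 69 windows were found in another miRNA gene. Of Mir29c, 3 of 69 were found in Mir29b-1, and each of the 3 begins upstream of the mature 3p strand. Mir29b-1 shared 9 of 52 windows with Mir29b-2 or Mir29c, and Mir29b-2 shared 6 of 62 with Mir29b-1. The counts of Mir29b-1 and Mir29b-2 are uncertain for this reason. Copies outside annotated miRNA genes were not searched.

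**Figure D1:**
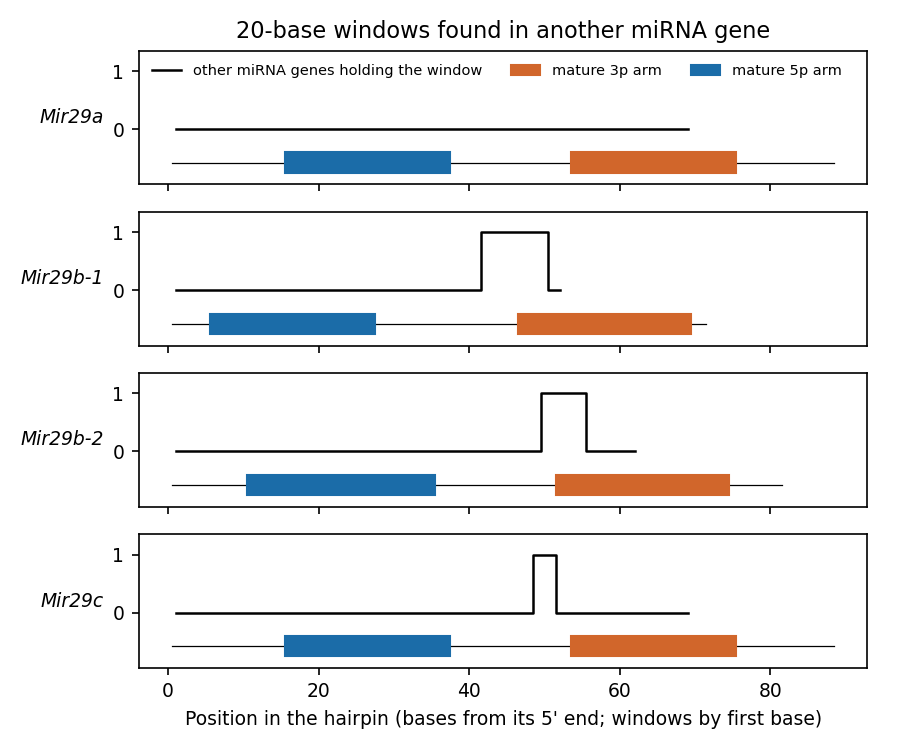
Number of other miRNA genes that hold each 20-base window (black line, windows placed by their first base) along the 4 miR-29 hairpins, with position in bases on the horizontal axis and the mature 5p (blue) and 3p (orange) strands drawn to scale. The shared windows lie at the 3p strand of Mir29b-1 (9 windows) and Mir29b-2 (6 windows), 3 begin just upstream of the 3p strand in Mir29c, and Mir29a has 0.

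The genes lie in 2 clusters. On chromosome 6, on the minus strand in mm10, Mir29a (ENSMUSG00000065610.1) spans bases 31062660 to 31062747 and Mir29b-1 (ENSMUSG00000065604.2) spans bases 31063023 to 31063093, with 275 bases between them. No other annotated gene overlaps Mir29a, and the long noncoding RNA gene Gm27019 overlaps Mir29b-1 by 2 bases on the same strand. On chromosome 1, on the plus strand, Mir29b-2 (ENSMUSG00000065412.3) spans bases 195037040 to 195037120 and Mir29c (ENSMUSG00000065548.1) spans bases 195037547 to 195037634, with 426 bases between them. Both lie in an exon of 1 of the 4 annotated transcripts of the noncoding gene A330023F24Rik. On the other strand both lie opposite an untranslated exon of 1 of 4 transcripts of Cd46, a gene for a complement regulator. Reads on the strand opposite to the 4 miR-29 genes numbered 0 in both libraries, where a count of 0 allows up to 3 reads per gene and library.

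Library 1 held 7938596 reads, of which 2244073 lay on the strand of a miRNA gene, and library 2 held 11132685, of which 3912280 did. Levels are given as CPM, the counts scaled to a common total of these miRNA reads, with no scaling for gene length, since a read spans a mature strand and not the hairpin. Intervals cover counting error only and not the spread between replicates. PCR copies of a molecule cannot be recognised without molecular identifiers, so the intervals may be too narrow even for counting error. The neuroendocrine list, with 2 of its 4 genes annotated under these symbols, held 4.15% and 4.21% of the miRNA reads, led by Mir375 at 37067 ± 716 CPM (SD, n = 2), while the hepatocyte gene Mir122 had 5185 CPM in library 1 and 491 CPM in library 2. The libraries also differed in markers of other cell types. The summed share of miRNA reads was 5.38% and 12.1% in libraries 1 and 2 for the endothelial gene Mir126a, 2.89% and 4.18% for the 6 smooth muscle and fibroblast genes, and 0.068% and 2.57% for the 3 erythroid genes, led by Mir451a at 480 and 24242 CPM. Mir126a and Mir451a share a window of 20 bases, searched on both strands, with Mir126b and Mir451b. The search does not tell a copy elsewhere from a gene on the opposite strand of the same place. Whether their counts leave out reads for this reason was not tested. Of the smooth muscle and fibroblast genes 5 of 6 were detected, and of the erythroid genes 3 of 3, with none at 0 in both libraries. Mir143 held 94.3% and 96.9% of the reads of the smooth muscle and fibroblast list, and the other 5 genes summed to 1647 CPM in library 1 and 1281 CPM in library 2. Of its 5 tested genes, 2 were called higher in library 2 (Mir143 and Mir199b) and 1 higher in library 1 (Mir214), with a median log2 ratio of -0.02. Of the erythroid genes, Mir451a and Mir144 were called higher in library 2 and Mir486 higher in library 1. The share was 0.109% and 0.0913% for the 4 leukocyte genes, led by Mir155 at 341 and 335 CPM. Mir155 was not called, but of the 4 genes 1 was called higher in library 2 and 2 higher in library 1. Their median log2 ratio was -0.43, and the 3 genes other than Mir155 summed to 747 and 577 CPM. The 5 striated muscle genes, led by Mir206, had 9 and 5 reads with 4 genes at 0 in both libraries, and the 2 exocrine pancreas genes, led by Mir217, had 4 in each. In bulk tissue, fewer cells of a type and less RNA per cell cannot be told apart.

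The 4 genes together had 10203 reads in library 1 and 18808 in library 2. This was 0.455% of the miRNA reads in library 1 (95% Wilson interval 0.446 to 0.464%) and 0.481% in library 2 (0.474 to 0.488%), or 0.468 ± 0.0184% (SD, n = 2). Within the family the counted reads were distributed very unequally, and nearly all of them came from Mir29a and Mir29c. Reads that fit both miR-29b genes are in none of these counts, so the shares are those of counted reads only.

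Mir29a had the most counted reads of the members in both libraries. It had 8225 reads in library 1 and 14338 in library 2, and 3665 CPM in each, with a 95% Wilson interval of 3587 to 3745 CPM in library 1 and 3605 to 3725 CPM in library 2. It held rank 40 of 2202 genes in library 1 and rank 43 in library 2. The SD between the libraries, 0.24 CPM (n = 2), is far smaller than the counting interval of either library. Mir29a made up 80.6% of the family's reads in library 1 (95% Wilson interval 79.8 to 81.4%) and 76.2% in library 2 (75.6 to 76.8%).

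Mir29c was second. It had 1854 reads in library 1 and 4363 in library 2, or 826 and 1115 CPM, and 971 ± 204 CPM as a mean (SD, n = 2). It ranked 92 in library 1 and 72 in library 2, so library 2 was the higher in level and in rank. Its part of the family's reads was 18.2% in library 1 (95% Wilson interval 17.4 to 18.9%) and 23.2% in library 2 (22.6 to 23.8%), and these intervals do not overlap. Mir29a had 4.44 times the reads of Mir29c in library 1 and 3.29 times in library 2.

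Mir29b-1, the partner of Mir29a on chromosome 6, had 91 reads in library 1 and 48 in library 2, or 40.6 and 12.3 CPM, with a mean of 26.4 ± 20.0 CPM (SD, n = 2). Library 1 was the higher although it was the shallower. Mir29b-2, the partner of Mir29c on chromosome 1, had 33 and 59 reads, or 14.7 and 15.1 CPM, with a mean of 14.9 ± 0.265 CPM (SD, n = 2). Its level was nearly the same in both libraries. The 2 genes together held 1.22% of the family's reads in library 1 and 0.569% in library 2, which counts only the reads that mapped to a single place.

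By counted reads, the order of the levels was Mir29a, Mir29c and then the 2 miR-29b genes in both libraries. There was no overlap between Mir29a, Mir29c and the miR-29b genes. The lower places were not separated. Mir29b-1 had 2.76 times the reads of Mir29b-2 in library 1, while in library 2 Mir29b-2 had 1.23 times the reads of Mir29b-1, and the mean of Mir29b-2 lies within 1 SD of that of Mir29b-1.

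**Figure D2:**
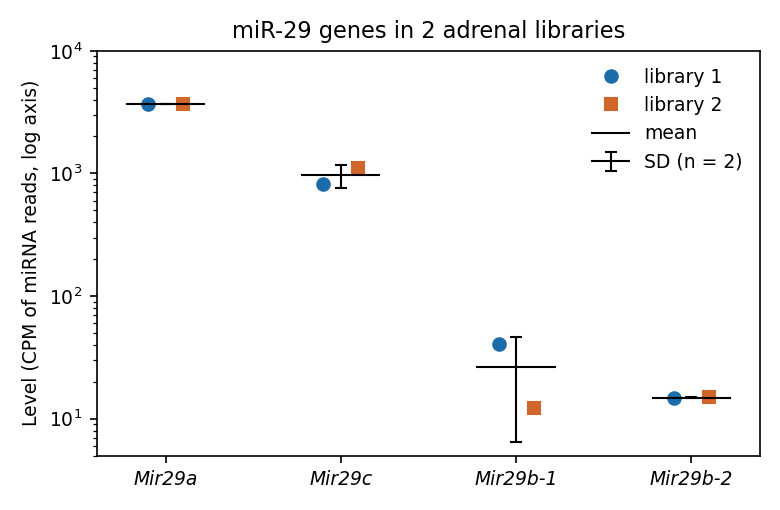
Level of each miR-29 gene in CPM of miRNA reads (log axis) in library 1 (circles) and library 2 (squares), with the mean (line) and SD (bar, n = 2). Mir29a lies at 3665 CPM in both libraries, Mir29c at 826 and 1115 CPM, Mir29b-1 at 40.6 and 12.3 CPM and Mir29b-2 at 14.7 and 15.1 CPM.

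The genes of a cluster can be cut from a shared primary transcript, and their levels were set side by side for this reason. Mir29a had 90.4 times the reads of Mir29b-1 in library 1 and 299 times in library 2. Mir29c had 56.2 times the reads of Mir29b-2 in library 1 and 73.9 times in library 2. By counted reads, each cluster had a high gene whose 3p strand no other gene makes and a low gene whose 3p strand is shared. The low gene's count leaves out reads that fit both miR-29b genes, so these ratios are not ratios of gene output. Over 108 pairs of adjacent detected miRNA genes, on one strand and no more than 10 kb apart, the log2 levels differed by a median of 2.10 in library 1 and 2.20 in library 2. The chromosome 6 pair differed by 6.50 and 8.22 on that scale, and 5 pairs in library 1 and 1 pair in library 2 lay farther apart. The chromosome 1 pair differed by 5.81 and 6.21, with 9 and 8 pairs farther apart. These pairs include other genes whose counts leave out reads mapped to several places, and the part of such reads in the gaps was not tested.

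**Figure D3:**
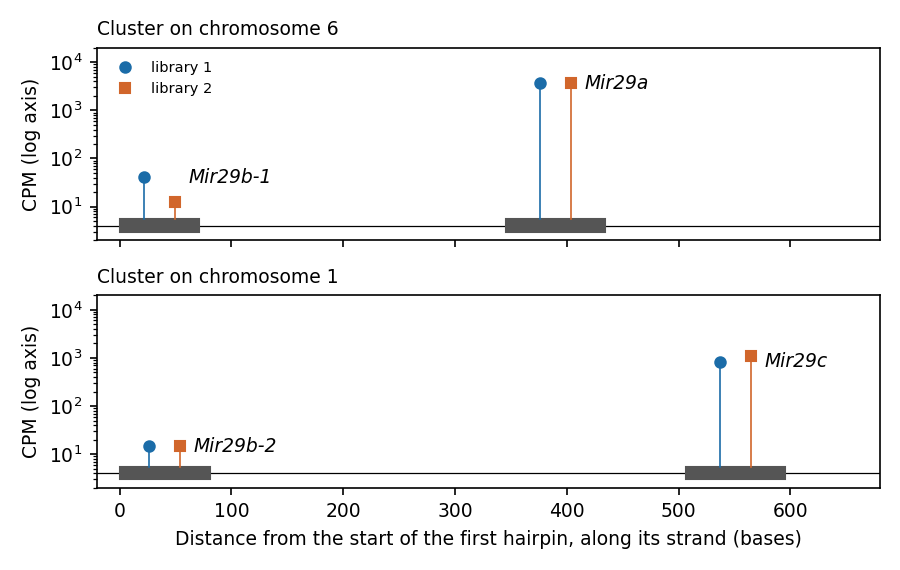
Levels in CPM (log axis) of the miR-29 genes in library 1 (circles) and library 2 (squares) above the hairpins (grey boxes, to scale) of the clusters on chromosomes 6 and 1, with distance in bases from the start of the first hairpin. The miR-29b gene comes first along the strand in both clusters and lies at 12.3 to 40.6 CPM, against 826 to 3665 CPM for its partner.

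Among the 1018 genes that matched the RefSeq table by symbol, 94 share a mature sequence with another gene, as Mir29b-1 and Mir29b-2 do, and 924 do not. Of the former, 44 were detected, with a median level of 43.7 CPM, and of the latter 260 were detected, with a median of 194 CPM. Mir29b-1 and Mir29b-2 lay below the median of the former, and Mir29a and Mir29c above that of the latter. The 2 classes also differ in other ways that were not examined, so the medians are a description.

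**Figure D4:**
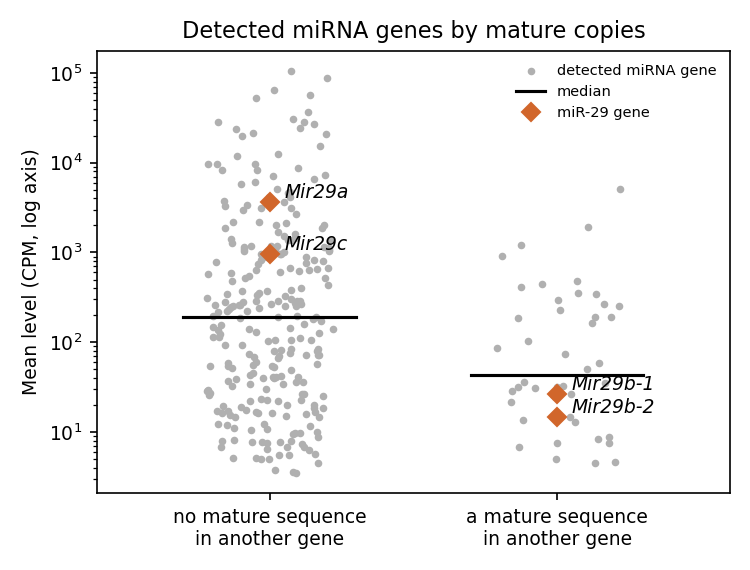
Mean level in CPM (log axis) of the detected miRNA genes without (left, 260 genes) and with (right, 44 genes) a mature sequence found in another gene, with the median of each class (black line) and the miR-29 genes (diamonds). Mir29a and Mir29c lie above the left median of 194 CPM, and Mir29b-1 and Mir29b-2 below the right median of 43.7 CPM.

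The ratio between the libraries was tested for each gene with an exact binomial test given its summed reads, which asks whether 2 libraries differ beyond counting error and says nothing about conditions. Over all 411 tested genes, 58.4% were called at an adjusted p of 0.05, 29.4% as higher in library 2 and 29.0% as higher in library 1. Of the 4 miR-29 genes 3 were called, a count that does not set 4 genes apart from that background. Ratios are given after TMM scaling as log2 of library 2 over library 1.

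Mir29c was higher in library 2 by 0.52 on the log2 scale (95% interval 0.44 to 0.60, 1.43-fold, exact binomial test, adjusted p = 2.32e-39). This is close to the median absolute log2 ratio of the 337 detected genes, 0.47, and 44.8% of them had a larger one. The endothelial and erythroid shares given above were also higher in library 2, the latter through Mir451a and Mir144. Both of the 2 tested neuroendocrine genes were called higher there too. Mir375 had a log2 ratio of 0.05, and the other gene had 3921 CPM in library 1 and 5543 CPM in library 2. The smooth muscle and fibroblast share was higher there through Mir143, while the sum of its other genes was lower. That lower sum came chiefly from Mir214 (781 and 449 CPM in libraries 1 and 2), while Mir199b was higher in library 2 (12.5 and 36.8 CPM). The part of these cell types in the Mir29c difference was not tested.

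Mir29b-1 was higher in library 1, with a log2 ratio of -1.63 (95% interval -2.17 to -1.12, 3.10-fold, exact binomial test, adjusted p = 1.87e-10). Of the detected genes 2.97% had a larger absolute ratio, and of the 71 others at a mean level within 2-fold of its own, 1 did. Among the cell type markers, the hepatocyte gene Mir122 was higher in library 1 as well, as were Mir214, Mir486 and 2 leukocyte genes. In the lists of the last 3 kinds, 2 smooth muscle and fibroblast genes, 2 erythroid genes and 1 leukocyte gene were called higher in library 2. The part of these cell types in the Mir29b-1 difference was not tested. The ratio rests on 91 and 48 reads, and it differed from that of its cluster partner Mir29a by 1.72 on the log2 scale, against a median of 0.51 over the 108 pairs, of which 5 had a larger gap.

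Mir29a had a log2 ratio of 0.09 (95% interval 0.05 to 0.13, 1.06-fold, exact binomial test, adjusted p = 4.01e-05). The call depended on the scaling, since with scaling by the sum of miRNA reads the log2 ratio was -0.00017 and the adjusted p was 1. With the other scalings, filters and columns Mir29a was called as higher in library 2, with log2 ratios from 0.08 to 0.25. Mir29b-2 had a log2 ratio of 0.11 (95% interval -0.52 to 0.78, exact binomial test, adjusted p = 0.833), an interval that holds differences of up to 0.78 on the log2 scale. The Mir29b-2 and Mir29c ratios differed by 0.41.

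**Figure D5:**
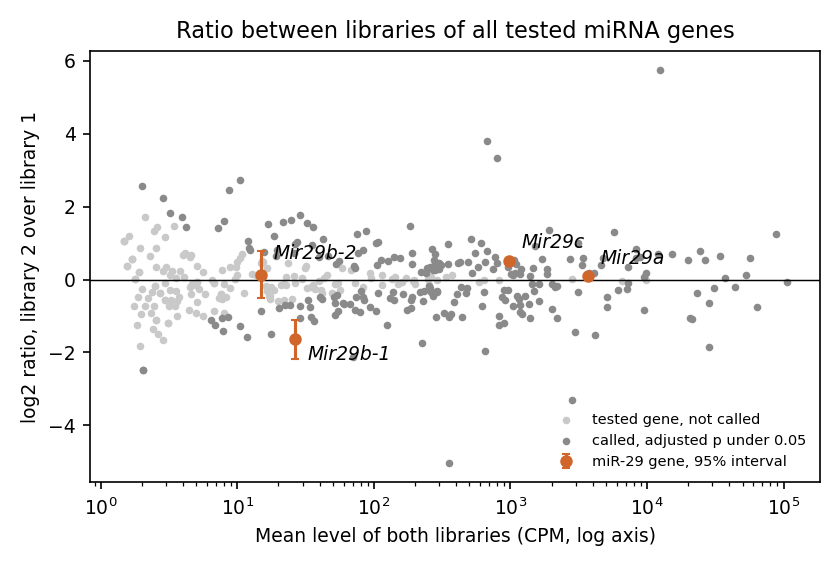
Log2 ratio of library 2 over library 1 against mean level in CPM (log axis) for all 411 tested miRNA genes (dark grey called, light grey not called), with the miR-29 genes and their 95% counting intervals in orange. Mir29b-1 lies at -1.63, at the lower edge of genes of its level, while Mir29a (0.09), Mir29b-2 (0.11) and Mir29c (0.52) lie within the bulk of the points.

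The miRNA genes whose levels lay closest to each member in the 2 libraries were found by the distance of log2(CPM + 1), a likeness over 2 libraries only. Closest to Mir29a were Mir28a (3764 ± 179 CPM), Mir541 (4099 ± 176 CPM) and Mir93 (3330 ± 521 CPM), at distances of 0.0869, 0.236 and 0.308 (SD, n = 2). Closest to Mir29c were Mir221 (1020 ± 193 CPM), Mir671 (963 ± 121 CPM) and Mir532 (1064 ± 234 CPM), at distances of 0.110, 0.124 and 0.186 (SD, n = 2). Closest to Mir29b-2 were Mir450-1, Mir190b and Mir1968, at 13.6 to 16.5 CPM and distances of 0.175 to 0.236. Closest to Mir29b-1 were n-TSaga9, Mir383 and Mir292, at 22.2 to 28.8 CPM, with larger distances of 0.511 to 0.645. The first of these has no miRNA symbol and is included only because the annotation types it as a miRNA gene. Mir28a, Mir190b, Mir450-1, Mir292 and n-TSaga9 share a window of 20 bases, searched on both strands, with another miRNA gene. Whether their counts leave out reads for this reason was not tested.

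The family was set beside 24 other miRNA genes studied in collagen deposition, fibrosis or TGF-beta signalling, of which 23 were annotated under these symbols, 17 tested and 14 detected. Mir143, which is abundant in smooth muscle, led this list with 33923 ± 9376 CPM, and Mir21a, which is raised in many fibrotic tissues, followed with 20744 ± 10949 CPM (SD, n = 2). Next came Mir132 with 897 ± 528 CPM and Mir145a, encoded beside Mir143, with 818 ± 40.7 CPM (SD, n = 2). By mean level 2 genes of the list lay above Mir29a and the same number above Mir29c, namely Mir143 and Mir21a, while 10 lay above Mir29b-1 and 11 above Mir29b-2. Of the 17 tested genes, 3 were called higher in library 2 and 4 higher in library 1, and 10 were not called. The median log2 ratio of the tested genes of the list was 0.02, against -0.07 over all 411 tested genes. Mir143 was higher in library 2 (log2 ratio 0.66), Mir21a (log2 ratio -1.05) and Mir132 (log2 ratio -1.19) were higher in library 1, and Mir145a had a log2 ratio of -0.02 (95% interval -0.10 to 0.07).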

How the data were processed

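The authors deposited 1 table of raw read counts per miRNA gene for each library, made on mm10 with the GENCODE M21 annotation, per the labels and the text deposited with each table. The aligner, the counter and the trimming were not given in the sources used here. Each table has no header, an unstranded column and 2 stranded ones. Of the stranded ones, the larger in total served as the count in the direction of the gene, an inference from the values. Library sizes exclude rows without a gene: unmapped reads (33.8% and 27.8% in libraries 1 and 2), reads mapped to several places and reads outside miRNA genes (9.57% and 9.53%). The libraries held 7938596 and 11132685 reads. Per the labels, the RNA was size-selected below 30 nucleotides.

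Genes with 10 or more summed reads went into an exact binomial test (two-sided) on TMM effective library sizes, adjusted by Benjamini and Hochberg over all tested genes, since a single group leaves no coefficient for a quasi-likelihood test. Log2 ratios had 0.5 read added. Alternatives were other scalings, filters, columns and denominators and leaving out each library. Sequences came from RefSeq (GRCm38.p6), and 2202 of 2202 gene identifiers matched GENCODE M21. Python 3.11.15, scipy 1.17.1, R 4.3.3, edgeR 4.0.16 and DESeq2 1.42.0 (size factors) were used, and the test was tested on simulated data. The simulated counts held counting error only. They do not show how the test behaves with spread between replicates. The members and lists were chosen with earlier results of these data known. Named genes are the 4 members, the 3 genes nearest to each, the 4 most abundant of the matrix list and the most abundant marker of each cell type list; Mir126b and Mir451b are named for shared sequence only, and Mir199b, Mir214, Mir144 and Mir486 were named after their values were seen. CAST alleles may map less well to mm10 in both libraries.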

Additional observations from a re-analysis of the deposited data

How the results depend on the processing

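With scaling by the sum of miRNA reads, the Mir29a log2 ratio was -0.00017 in place of 0.09, and 2 rather than 3 miR-29 genes were called. In the other settings Mir29a kept its call and direction, with log2 ratios from 0.08 to 0.25. Mir29b-1 and Mir29c kept their call and direction in every scaling in which they were tested, with log2 ratios from -1.72 to -1.47 for Mir29b-1 and from 0.43 to 0.68 for Mir29c. With 100 or more reads in each library, Mir29b-1 and Mir29b-2 were not tested. Without a filter on low counts the log2 ratios of all genes shifted by 0.17, and 61.7% of the calls were higher in library 2, against 50.4% in the main analysis.

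Mean levels moved with the denominator. In the unstranded column they were 4448 CPM for Mir29a, 1186 for Mir29c, 31.3 for Mir29b-1 and 18.1 for Mir29b-2, and the family held 0.568% of the reads. Scaled to all reads they were 1162, 312.7, 7.89 and 4.73 in the same order, and the family held 0.149%. Scaled to mapped reads they were 1674, 447.8, 11.6 and 6.81, and the family held 0.214%. Leaving out each library gave 3665 to 3665 CPM for Mir29a, 826 to 1115 for Mir29c, 12.3 to 40.6 for Mir29b-1, 14.7 to 15.1 for Mir29b-2 and a family share of 0.455 to 0.481%. The family's composition then ranged from 76.2 to 80.6% for Mir29a, 18.2 to 23.2% for Mir29c, 0.255 to 0.892% for Mir29b-1 and 0.314 to 0.323% for Mir29b-2. No paired analysis was possible because the 2 libraries belong to a single group. The 2 miR-29b genes rest on the fewest counted reads, 33 to 91 per library. Reads that fit both of them are in neither count, whatever the depth.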
